A study of Mus musculus with 18 samples.

Results

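Glutamine synthetase (Glul) and 8 other genes that hepatocytes near the central vein express (Slc1a2, Rhbg, Oat, Gulo, Rgn, Cyp1a2, Lect2 and Slc13a3) were followed through mouse livers and liver tumours. They were chosen by name, as genes of the glutamine synthetase zone and its surroundings, with earlier results of these data known. All 9 were found among the 54838 genes of the expression table and had enough signal to be tested in every comparison. RNA-seq was done on 18 samples from C57BL/6 mice aged 36 weeks, in 6 groups of 3. Wild-type (WT) and GKO mice, which lack the miR-181ab1 microRNA cluster in all tissues, each gave liver tumours and non-tumour liver after diethylnitrosamine (DEN, a liver carcinogen, 25 mg/kg once at postnatal day 12), and normal liver without DEN. The labels tie no tumour to a non-tumour liver of the same mouse and do not state that the 3 samples of a group came from 3 mice, so the p-values measure the spread between these samples.

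Hepatocytes are not alike across the liver lobule. Those beside the central vein make glutamine from ammonia and oxidise foreign compounds, under Wnt signals released by the endothelium of the central vein and passed on by β-catenin, while those near the portal vein run the urea cycle. Glutamine synthetase marks a narrow ring of cells around the central vein in normal liver, and it is used in pathology as a marker of liver tumours with active β-catenin.

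Values are given in TPM (the reads on a gene per unit of its length, as a share of 1000000 in each sample). Differences are log2 fold changes of TPM + 1, which understate the change of low genes, tested with limma, and a call means a p under 0.05 after Benjamini-Hochberg adjustment over all genes tested. Depth was 11925055 to 20751348 gene reads per sample. The microRNA genes deleted in GKO mice cannot check the genotypes, since Mir181b-1 had 0 reads in every sample and Mir181a-1 had at most 1 read, in 1 sample. Of 10 hepatocyte markers 9 were found and none was at 0 in any group. Their summed level was 74871 to 112274 TPM in the 12 livers without tumour and 201008 to 238096 TPM in the 6 tumours, where Alb alone took 8.36% to 14.0% of all TPM, against 2.29% to 4.41% in the livers. As TPM has a fixed sum, such a share lowers the TPM of all other genes.

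One library stood apart. In WT non-tumour 2, 47.1% of 13488 genes lay outside the range of the other 11 livers without tumour, against 5.27% to 20.2% of genes in each of those 11. Whether it holds what its label says was not tested, and it enters every mean of WT non-tumour livers. The 9 genes split in this library, so their log2 fold changes in WT tumours against WT non-tumour livers are given with and without it. In the other comparisons that use it, the range or the largest value of the 9 is given both ways. Counts of groups that did not overlap include it. WT tumours 1 and 2 were more alike (Pearson's r = 0.982 across genes) than any other pair of tumours (0.911 to 0.950).

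In all 4 groups without tumour, Oat or Rgn had the highest mean of the members and Slc1a2, Slc13a3 and Rhbg the lowest. In WT normal liver the means ran from Oat (1296 TPM) through Rgn (837), Cyp1a2 (624), Glul (606), Lect2 (242) and Gulo (199.6 TPM) to Slc1a2 (24.4), Slc13a3 (5.50) and Rhbg (1.79 TPM). In that order Rgn overlapped with Cyp1a2, Cyp1a2 with Glul and Lect2 with Gulo, and the other neighbours did not overlap. In WT tumours the order was Gulo (92.5 TPM), Oat (90.0), Rgn (57.5), Lect2 (53.0), Glul (37.0), Cyp1a2 (30.3), Slc13a3 (2.51), Rhbg (0.848) and Slc1a2 (0.505 TPM). There Slc13a3 overlapped with neither Cyp1a2 nor Rhbg, and all other neighbours overlapped. In GKO tumours Rgn (131 TPM) and Glul (101 TPM) came first and Rhbg last (0.392 TPM), and every neighbouring pair of members overlapped.

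**Figure D1:**
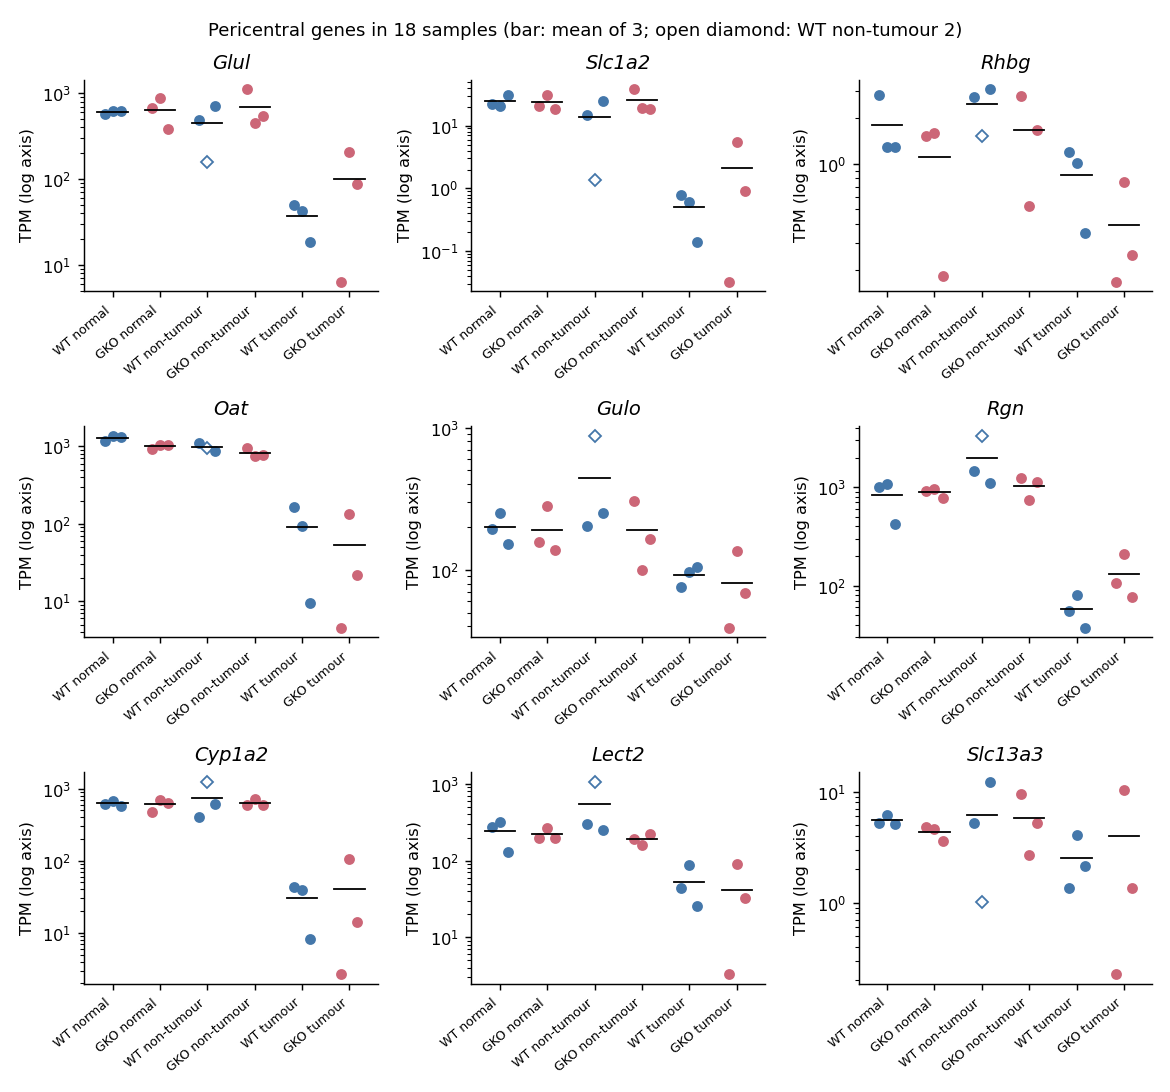
TPM (log axis) of each member in the 18 samples, by group, with 1 point per sample, WT in blue and GKO in red, and a bar at the mean of 3. Tumours sit lowest for Rgn, Oat, Cyp1a2 and Lect2, and the open diamond, WT non-tumour 2, sits below the other livers for Glul, Slc1a2 and Slc13a3 and above them for Gulo, Rgn, Cyp1a2 and Lect2.

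The 250 bases before the gene start are shown for a pair of members that were lowest in WT non-tumour 2 (Glul and Slc1a2) and a pair that were highest there (Lect2 and Cyp1a2). They are RefSeq sequences on GRCm38.p6, written 5′ to 3′ on the strand of the gene, and 6 of the 9 members had an entry (the others are Rhbg, Gulo and Rgn). Capitals mark letters searched on both strands, so that a match may read as the reverse complement. The core bound by TCF/LEF was searched as CTTTGA, where TCF/LEF are the DNA-binding partners of β-catenin. For the Ahr receptor the core was GCGTG, and the TATA box of core promoters was searched as TATAAA.
Glul, chr1:153899679-153899928, plus strand: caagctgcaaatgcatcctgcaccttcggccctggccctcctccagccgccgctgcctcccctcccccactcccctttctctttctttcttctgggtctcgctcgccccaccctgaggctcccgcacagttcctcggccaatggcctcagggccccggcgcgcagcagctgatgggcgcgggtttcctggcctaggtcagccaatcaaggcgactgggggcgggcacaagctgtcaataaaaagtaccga
Slc1a2, chr2:102706188-102706437, plus strand: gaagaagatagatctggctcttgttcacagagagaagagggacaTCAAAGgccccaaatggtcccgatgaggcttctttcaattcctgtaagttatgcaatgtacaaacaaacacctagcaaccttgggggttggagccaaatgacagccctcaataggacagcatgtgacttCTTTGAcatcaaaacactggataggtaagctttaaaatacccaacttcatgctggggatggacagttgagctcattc
Lect2, chr13:56548539-56548788, minus strand: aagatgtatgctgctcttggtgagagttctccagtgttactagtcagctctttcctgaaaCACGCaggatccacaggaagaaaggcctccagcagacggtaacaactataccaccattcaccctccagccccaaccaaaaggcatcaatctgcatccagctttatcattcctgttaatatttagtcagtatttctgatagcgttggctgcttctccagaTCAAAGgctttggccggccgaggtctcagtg
Cyp1a2, chr9:57683656-57683905, minus strand: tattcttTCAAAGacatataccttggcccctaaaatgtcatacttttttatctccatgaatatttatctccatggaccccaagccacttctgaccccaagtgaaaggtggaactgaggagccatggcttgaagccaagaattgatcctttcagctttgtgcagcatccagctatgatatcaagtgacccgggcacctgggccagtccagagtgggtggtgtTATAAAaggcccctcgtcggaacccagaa
The TCF/LEF letters stood in 3 of the 6 members' windows, with 2 matches in Slc1a2 (starting at -206 and -77 from the gene start) and 1 each in Lect2 (-31) and Cyp1a2 (-243). They were found in 13.8% of all 32851 windows of this length. The Ahr letters were found only in Lect2 among the 6 (28.2% of all windows), and the TATA letters only in Cyp1a2 (-29, and 12.4% of all windows). No 2 of the marked matches overlap. The RefSeq window of Slc1a2 lies inside the longer gene of the annotation used below, which starts further upstream, and the 48 bases of the Cyp1a2 window nearest the gene start, with the TATA letters, also lie inside the annotated gene. The matched letters do not separate the pair that was low in WT non-tumour 2 from the pair that was high, since Slc1a2, Lect2 and Cyp1a2 all hold the TCF/LEF letters.

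In tumours against non-tumour livers, all 9 members had lower means in both genotypes. In WT mice 4 of the 9 were called, all lower: Rgn, Cyp1a2, Glul and Lect2. Over all 14003 genes tested 4.23% were called, and 2.07% were called and lower. In GKO mice 4 of the 9 were called, again all lower: Cyp1a2, Oat, Slc1a2 and Rgn, where 11.7% of 14092 genes were called and 3.97% were called and lower. The tumour and non-tumour groups did not overlap for 8 members in WT mice and 6 in GKO mice, with 13.9% and 12.7% of all genes separated in that direction. The median log2 fold change of the 9 was -3.19 in WT and -3.06 in GKO mice, against -0.02 and 0.20 over all genes tested. Without WT non-tumour 2 the WT median was -3.76, against 0.03. The 9 were chosen with earlier results of these data known, so these shares describe them and do not test the list. In bulk tissue, fewer cells of a type and less RNA per cell cannot be told apart.

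**Figure D2:**
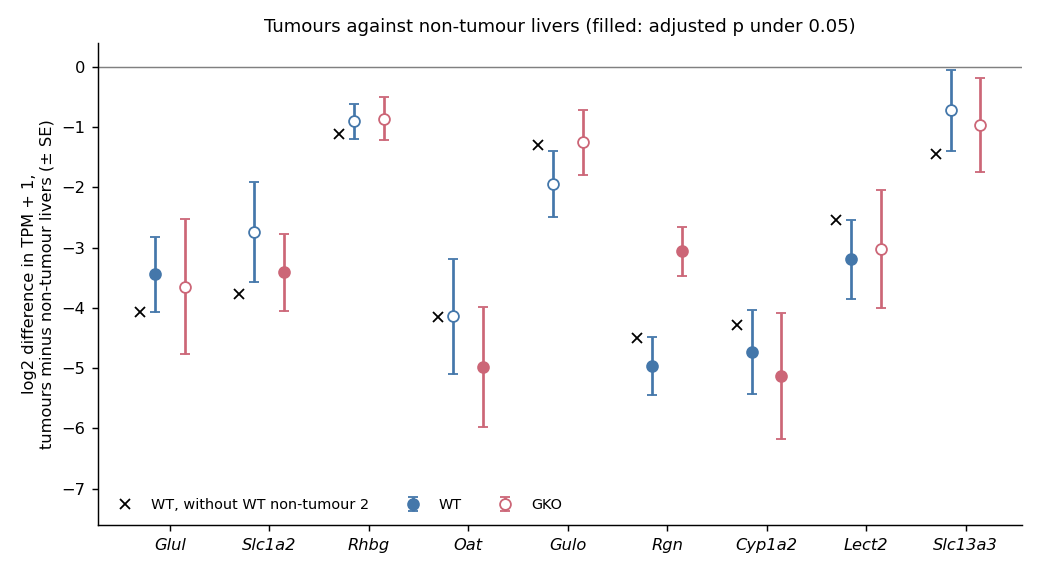
Log2 fold change of TPM + 1 in tumours against non-tumour livers (vertical axis) for the 9 members, with bars for the SE, 3 samples a group, WT in blue and GKO in red. Filled points had an adjusted p under 0.05 and crosses give the WT value without WT non-tumour 2; every value lies below 0, from -0.72 for Slc13a3 in WT mice to -5.13 for Cyp1a2 in GKO mice.

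Glul, the enzyme that joins ammonia to glutamate (chr1:153899944-153909723 on mm10, plus strand), was at 579, 618 and 620.0 TPM in WT normal livers and at 681, 876 and 387 TPM in GKO normal livers. In non-tumour livers it was at 488, 159 and 715 TPM (WT) and at 1114, 448 and 538 TPM (GKO). The tumours had 49.98, 42.5 and 18.5 TPM (WT) and 6.38, 209 and 87.7 TPM (GKO). All 6 tumours but GKO tumour 2 lay below every liver, and GKO tumour 2 lay above WT non-tumour 2 but below every GKO liver. The log2 fold change in tumours was -3.44 (SE 0.62, adjusted p = 0.0320) in WT mice and -3.65 (SE 1.12, adjusted p = 0.0751) in GKO mice, so that Glul fell in WT tumours and missed the threshold in GKO tumours. Without WT non-tumour 2 the WT value was -4.07 (adjusted p = 0.0129). The WT call was lost without WT non-tumour 1 (adjusted p = 0.127), WT non-tumour 3 (0.0993), WT tumour 1 (0.0869) or WT tumour 2 (0.110). It was also lost with a replicate block (adjusted p = 0.0593), with no filter on low values (0.0801) and with WT tumours 1 and 2 averaged (0.0977). In GKO mice Glul passed the threshold without GKO tumour 2 (-4.66, adjusted p = 0.0372) and with all 18 samples in 1 fit (adjusted p = 0.0116). Its exons overlap those of Teddm2 on the other strand, which was at 0.547 TPM or less.

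Slc1a2, the glutamate transporter that supplies glutamine synthetase with its substrate (chr2:102658659-102790784, plus strand), was at 21.9, 20.7 and 30.6 TPM in WT and 20.7, 31.2 and 18.3 TPM in GKO normal livers. Non-tumour livers had 14.8, 1.37 and 24.6 TPM (WT) and 37.8, 19.2 and 18.7 TPM (GKO). In tumours it was at 0.774, 0.603 and 0.138 TPM (WT) and at 0.0330, 5.48 and 0.918 TPM (GKO). GKO tumour 1 had 4 reads of it, just over the 3 taken as the floor, and GKO tumour 2 had 589. The tumours of both genotypes lay below all non-tumour livers of their genotype, with 3.72% (WT) and 8.51% (GKO) of the non-tumour mean. Of the mean of WT non-tumours 1 and 3 alone, the WT tumours had 2.57%. Slc1a2 fell in GKO tumours (log2 fold change -3.41, SE 0.64, adjusted p = 0.020). That call was lost without GKO non-tumour 2 (adjusted p = 0.0553), GKO non-tumour 3 (0.0658) or GKO tumour 3 (0.0739), and with no filter on low values (0.0625). In WT tumours the value was -2.74 (SE 0.83, adjusted p = 0.135), and it was called without WT non-tumour 2 (-3.76, adjusted p = 0.00558).

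Rhbg, an ammonium transporter of the plasma membrane (chr3:88242874-88254709, minus strand), had the lowest mean of the members in every group but WT tumours. It was at 2.81, 1.28 and 1.29 TPM in WT and at 1.52, 1.60 and 0.182 TPM in GKO normal livers. Non-tumour livers had 2.76, 1.52 and 3.08 TPM (WT) and 2.77, 0.527 and 1.66 TPM (GKO), and tumours had 1.19, 1.01 and 0.351 TPM (WT) and 0.168, 0.757 and 0.252 TPM (GKO). It had 3 to 50 reads per sample. Its log2 fold change in tumours was -0.90 (SE 0.29, adjusted p = 0.152) in WT and -0.86 (SE 0.35, adjusted p = 0.144) in GKO mice, and was not called. Without WT non-tumour 2 the WT value was -1.12 (adjusted p = 0.0804). Rhbg shares exons with Gm38392 on the same strand (0.54 TPM or less), so reads may have been split between them.

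Oat, ornithine aminotransferase, which turns ornithine into a precursor of glutamate (chr7:132557478-132576398, minus strand), was the most even member in livers without tumour. It was at 1180.0, 1379 and 1329 TPM in WT and 931, 1053 and 1032 TPM in GKO normal livers. In non-tumour livers it was at 1096, 948 and 869 TPM (WT) and at 943, 748 and 778 TPM (GKO). Tumours had 167, 93.8 and 9.36 TPM (WT) and 4.54, 135 and 22.1 TPM (GKO), so the 6 tumours all lay below the 12 livers, but spread 36.8-fold among themselves. Oat fell in GKO tumours (log2 fold change -4.98, SE 1.00, adjusted p = 0.0242), a call that was lost without GKO non-tumour 1 (adjusted p = 0.0519), GKO non-tumour 2 (0.0692), GKO non-tumour 3 (0.0870) or GKO tumour 3 (0.0839), and with no filter on low values (0.0713). In WT tumours it was at -4.14 (SE 0.96, adjusted p = 0.0671) and passed without WT tumour 3 (-2.94, adjusted p = 0.00546), the WT tumour with the least Oat. The value was -4.15 without WT non-tumour 2, where Oat was within the range of the other livers.

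The next pair of genes makes ascorbate, the vitamin C that mice can synthesise. Rgn (regucalcin) closes the lactone ring of gulonate and Gulo oxidises the product in the last step. Rgn (chrX:20549787-20562089, plus strand) was at 1015, 1075 and 420.4 TPM in WT and 921, 963 and 779.9 TPM in GKO normal livers. Non-tumour livers had 1458, 3342 and 1098 TPM (WT) and 1232, 736 and 1136 TPM (GKO). WT tumours had 55.6, 79.5 and 37.3 TPM and GKO tumours 105, 211 and 77.5 TPM, all below the lowest liver. Rgn fell in WT tumours (log2 fold change -4.97, SE 0.48, adjusted p = 0.00339) and in GKO tumours (-3.06, SE 0.41, adjusted p = 0.00828). It was the one member whose call held in both genotypes under each alternative setting and without each sample in turn, with an adjusted p of at most 0.0247 in WT and 0.0467 in GKO mice. Without WT non-tumour 2 the WT value was -4.50 (adjusted p = 0.00552).

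Gulo (chr14:65986786-66009207, minus strand) was at 193, 253 and 153 TPM in WT and at 156, 279.9 and 138 TPM in GKO normal livers. Non-tumour livers had 204, 880.0 and 250.1 TPM (WT) and 303, 99.9 and 165 TPM (GKO), and tumours had 75.7, 97.0 and 105 TPM (WT) and 39.0, 134 and 68.7 TPM (GKO). The WT tumours lay below the WT non-tumour livers, whereas GKO tumour 2 was above GKO non-tumour 2. Of the 6 members above 100 TPM in normal liver, Gulo kept most in tumours, with 20.8% of the WT and 42.7% of the GKO non-tumour mean. Of the mean of WT non-tumours 1 and 3 alone, the WT tumours had 40.8%. Its log2 fold change was -1.94 (SE 0.55, adjusted p = 0.115) in WT and -1.25 (SE 0.54, adjusted p = 0.161) in GKO mice, and was not called. Without WT non-tumour 2 the WT value was smaller but called (-1.29, adjusted p = 0.0474).

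Cyp1a2, a cytochrome P450 that oxidises caffeine and aromatic amines (chr9:57676937-57683703, minus strand), was at 619, 676 and 577 TPM in WT and 475, 701 and 639 TPM in GKO normal livers. It was at 399, 1245 and 612 TPM in WT and at 585, 729.9 and 591 TPM in GKO non-tumour livers. Tumours had 43.2, 39.6 and 8.16 TPM (WT) and 2.69, 104 and 14.0 TPM (GKO), below all 12 livers. Cyp1a2 fell in WT tumours (log2 fold change -4.73, SE 0.70, adjusted p = 0.0162) and in GKO tumours (-5.13, SE 1.05, adjusted p = 0.0253). The WT value was -4.28 without WT non-tumour 2 (adjusted p = 0.0361), and the call was lost without WT non-tumour 1 (adjusted p = 0.0513), WT non-tumour 3 (0.0618) or WT tumour 2 (0.0509). The GKO call was lost without GKO non-tumour 1 (adjusted p = 0.0505), GKO non-tumour 2 (0.0769), GKO non-tumour 3 (0.0896) or GKO tumour 3 (0.0867), and with no filter on low values (0.0736).

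Lect2, a protein that hepatocytes secrete and that attracts leukocytes (chr13:56542464-56548502, minus strand), was at 277, 319.8 and 129.6 TPM in WT and 199, 267 and 195 TPM in GKO normal livers. Non-tumour livers had 304, 1068 and 254 TPM (WT) and 192, 162 and 221 TPM (GKO). In tumours it was at 44.2, 88.8 and 25.9 TPM (WT) and at 3.30, 89.4 and 32.5 TPM (GKO), again below all 12 livers. Lect2 fell in WT tumours (log2 fold change -3.19, SE 0.66, adjusted p = 0.0468), but the call was lost without any 1 of the 6 samples (adjusted p from 0.0515 without WT non-tumour 2 to 0.166 without WT tumour 1), with no filter on low values (0.112) and with WT tumours 1 and 2 averaged (0.124). In GKO mice the value was -3.02 (SE 0.97, adjusted p = 0.0844), and it was called without GKO tumour 2 (-3.99, adjusted p = 0.0298) and with all 18 samples in 1 fit (adjusted p = 0.020).

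Slc13a3, a sodium-coupled transporter of dicarboxylates such as succinate and α-ketoglutarate (chr2:165405028-165473230, minus strand), had the smallest difference of the members in WT mice, which did not hold without WT non-tumour 2. It was at 5.17, 6.21 and 5.11 TPM in WT and 4.83, 4.59 and 3.58 TPM in GKO normal livers. Non-tumour livers had 5.25, 1.01 and 12.2 TPM (WT) and 9.50, 2.69 and 5.23 TPM (GKO). Tumours had 1.35, 4.04 and 2.15 TPM (WT) and 0.228, 10.3 and 1.35 TPM (GKO). GKO tumour 2 was above all 3 GKO non-tumour livers, and all 3 WT tumours were above WT non-tumour 2. The log2 fold change was -0.72 (SE 0.67, adjusted p = 0.612) in WT and -0.96 (SE 0.78, adjusted p = 0.418) in GKO mice, and was not called. Without WT non-tumour 2 the WT value was -1.45 (adjusted p = 0.137).

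The 6 tumours were spread widely. GKO tumour 2 was highest of the 6 for 7 members and WT tumour 1 for the other 2 (Oat and Rhbg), while GKO tumour 1 was lowest for 8 members and WT tumour 3 for Rgn. From GKO tumour 1 to the highest tumour the span was 166-fold for Slc1a2, 45.0-fold for Slc13a3, 38.8-fold for Cyp1a2, 36.8-fold for Oat, 32.8-fold for Glul and 27.1-fold for Lect2. It was narrower for Rhbg (7.08-fold), Rgn (5.66-fold, from WT tumour 3) and Gulo (3.44-fold). In GKO tumour 1 Glul was at 0.912% of the GKO non-tumour mean and in GKO tumour 2 at 29.9%. Rgn did not follow this order, since GKO tumour 1 held 10.2% of its non-tumour mean, more than any WT tumour (1.90% to 4.05%, and 2.92% to 6.22% of the mean of WT non-tumours 1 and 3).

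**Figure D3:**
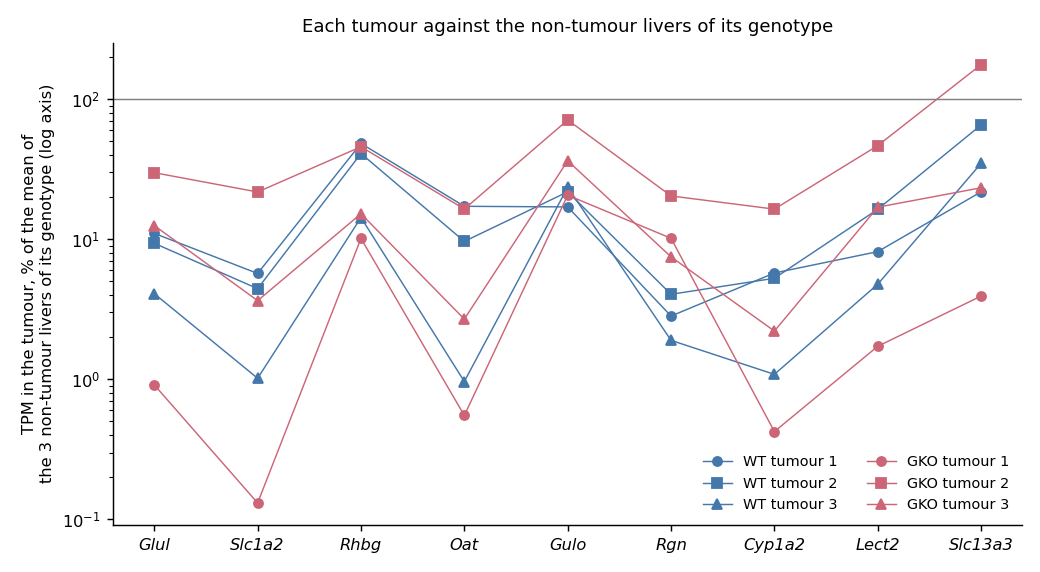
TPM of each member in each of the 6 tumours as a percentage (log axis) of the mean of the 3 non-tumour livers of its genotype, WT in blue and GKO in red, with lines joining the values of 1 tumour and a grey line at 100%. GKO tumour 2 runs highest for most members and passes 100% for Slc13a3 (177%), and GKO tumour 1 runs lowest, down to 0.131% for Slc1a2.

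Whether the loss of miR-181ab1 moved these genes was asked in tumours, in non-tumour livers and in normal livers. In GKO against WT tumours, limma called 0 of the 9 members and 0.0215% of 13964 genes, and 1 member, Rgn, had an unadjusted p under 0.05. Voom on reads recovered from the TPM also called 0 members. A block for the replicate number took the calls over all genes from 3 to 0. No member separated the genotypes, while 14.7% of all genes did. Rgn was at a log2 fold change of 1.11 (SE 0.44, adjusted p = 0.537), with a mean of 131 ± 70.5 TPM in GKO and 57.5 ± 21.2 TPM in WT tumours (SD, n = 3 each), and GKO tumour 3 was below WT tumour 2. The other members ranged from -1.08 for Oat to 0.66 for Slc1a2, with SEs of 0.28 to 1.38. Glul had 101 ± 102 TPM in GKO and 37.0 ± 16.4 TPM in WT tumours (log2 fold change 0.56, SE 1.16). With SEs of 1.16 for Glul, 1.38 for Oat, 1.06 for Lect2 and 1.21 for Cyp1a2, log2 fold changes of that size could not be told from the spread between tumours.

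In GKO against WT non-tumour livers, limma called 0 of the 9 members and 0% of 13768 genes, voom called 0, and 0 members had an unadjusted p under 0.05. The values ranged from -1.19 for Lect2 to 1.34 for Slc1a2, around a median of -0.15 over all genes tested. Both ends rest on WT non-tumour 2. Without it Lect2 was at -0.55 and Slc1a2 at 0.31, the 9 ranged from -0.66 (Rhbg) to 0.35 (Cyp1a2), and 0 were called by limma or had an unadjusted p under 0.05. Lect2 was the only member whose groups did not overlap (192 ± 29.9 TPM in GKO and 542 ± 456 TPM in WT livers, adjusted p = 0.643), beside 13.2% of all genes. In normal livers, again 0 members were called by limma or voom, 0 had an unadjusted p under 0.05 and 0% of 13099 genes were called. Their values lay between -0.45 (Rhbg) and 0.20 (Rgn). Oat (1006 ± 65.6 TPM in GKO and 1296 ± 104 TPM in WT) and Slc13a3 (4.34 ± 0.66 and 5.50 ± 0.62 TPM) separated the genotypes, both lower in GKO livers, where 7.95% of all genes separated them in either direction.

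No difference between the DEN-treated non-tumour livers and the normal livers was called for these genes. In WT non-tumour against WT normal livers 0 members were called by limma or voom, 0 had an unadjusted p under 0.05 and 0.00744% of 13440 genes were called. The groups of Oat and Rgn did not overlap, beside 33.9% of all genes. The values ran from -1.35 for Slc1a2 to 1.18 for Rgn, with a median of 0.32 over all genes tested. These values were -0.32 for Slc1a2 and 0.71 for Rgn without WT non-tumour 2, where the 9 ranged from -0.41 (Oat) to 0.71, and 0 were called by limma or had an unadjusted p under 0.05. In GKO mice 0 members were called by limma or voom, 0 had an unadjusted p under 0.05, 0 separated the groups (8.73% of all genes did) and 0% of 13530 genes were called, with values from -0.29 (Oat) to 0.33 (Rhbg). The genotype effect in tumours was also set against that in non-tumour livers. Limma and voom called 0 members in that comparison and limma called 0.0142% of 14106 genes. Rgn had the one unadjusted p under 0.05, with a difference of 1.90 (SE 0.67, unadjusted p = 0.0159, adjusted p = 0.448), where the median over all genes was 0.23. It was at 1.44 without WT non-tumour 2 (adjusted p = 0.628).

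In WT non-tumour 2 the 9 genes did not move as a group. Slc1a2 (1.37 TPM), Slc13a3 (1.01 TPM) and Glul (159 TPM) lay below all 11 other livers without tumour, and within the range of the 6 tumours. Against the mean of WT non-tumours 1 and 3, Slc1a2 was 14.4-fold, Slc13a3 8.66-fold and Glul 3.79-fold lower. Gulo (880.0 TPM), Lect2 (1068 TPM), Rgn (3342 TPM) and Cyp1a2 (1245 TPM) lay above all 11, by 3.88-fold, 3.83-fold, 2.62-fold and 2.46-fold over WT non-tumours 1 and 3. Oat and Rhbg were within the range of the other livers. With 1 library this is a description with no replicate check. That 7 of the 9 lay outside the range of the other livers is to be read beside the 47.1% of all genes that did, with 37.3% above and 9.72% below. The 7 stood at 147 reads or more in this library except Slc13a3, with 43.

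**Figure D4:**
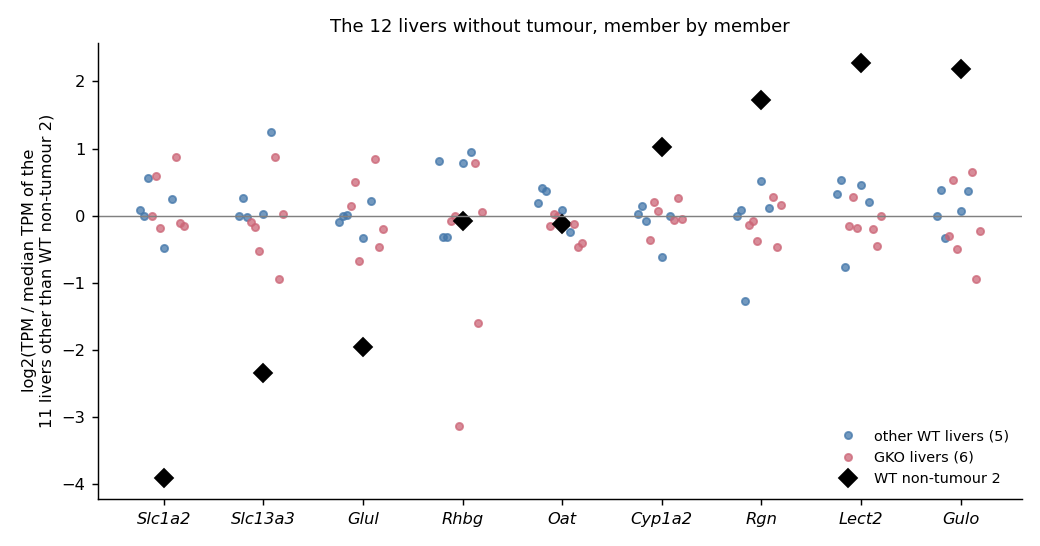
Log2 ratio of TPM in each of the 12 livers without tumour to the median of the 11 livers other than WT non-tumour 2, for each member (black diamonds: WT non-tumour 2; circles: 5 other WT livers in blue and 6 GKO livers in red). The diamond lies below all circles for Slc1a2, Slc13a3 and Glul, among them for Rhbg and Oat, and above them for Cyp1a2, Rgn, Lect2 and Gulo.

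Other genes of the zones were set beside this split. The counts of each list are to be read beside all genes, with 37.3% above the other 11 livers and 9.72% below. Of 24 other pericentral genes, 14 were above all 11 other livers in WT non-tumour 2 and 1, Lhpp, was below (79.1 TPM against 85.2 to 156 TPM). Among the β-catenin targets of this list, Axin2 was at 6.12 TPM (1.43 to 3.61 in the other 11) and Lgr5 at 2.21 TPM (0.336 to 1.32). Rnf43 and Znrf3 were also above the other 11. Notum, Sp5, Tbx3 and Nkd1 were within range, whereas Glul itself was below it. The glutathione transferase genes Gstm3 (8423 TPM against 9.86 to 125) and Gstm2 (1506 TPM against 34.1 to 107) were far above. Of 18 periportal genes 8 were below and 5 above, among them Sds, serine dehydratase (0.723 TPM against 62.7 to 396 TPM), and Cdh1, E-cadherin (27.7 TPM against 2.05 to 4.73), which was at 27.6 to 56.2 TPM in tumours. Rspo3, an amplifier of Wnt signals made by the central vein endothelium, was at 0.594 TPM against 2.63 to 14.5 TPM. Macrophage markers were below the range for 4 of 8 genes and above it for 0. Endothelial markers, the list that holds Rspo3, were above the range for 2 of 10 genes and below it for 2. Their sum was 36.1 TPM, against 31.7 to 82.9 TPM in the other livers, with no marker at 0. Stellate cell and fibroblast markers were below for 3 of 8 and above for 3. Dcn was among those below (6.23 TPM against 28.7 to 59.4) and Col1a1 among those above. Cholangiocyte markers were below for 2 of 6 and lymphocyte markers for 2 of 7, with none above. Hepatocyte markers were below for 3 of 9 and above for 2. The part of these differences in the split was not tested. These genes were named after their values were seen.

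Likeness to Glul was measured by Pearson's r of log2(TPM + 1), as a description over samples that share tissue and library differences. Over all 18 samples, among 13913 genes, the 5 genes outside the 9 most like Glul were Cyp4a14 (r = 0.965), Cyp2e1 (0.949), Tbx3 (0.941), Avpr1a (0.939) and the long noncoding gene 1700080G11Rik (0.936). Cyp4a14, which hydroxylates fatty acids, was at 620 to 2209 TPM in the 11 other livers, 76.2 TPM in WT non-tumour 2 and 1.71 to 333 TPM in tumours. Cyp2e1, the ethanol-oxidising cytochrome of pericentral cells, was at 8049 TPM in WT non-tumour 2, within its range of 3056 to 9357 TPM in the other livers, and at 18.8 to 1446 TPM in tumours. Among the members Slc1a2 had rank 2 (r = 0.952), Oat 22 (0.916) and Cyp1a2 27 (0.911), and Gulo came last at rank 1008 (0.629).

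Within the 12 livers without tumour, Slc1a2 was the gene most like Glul (r = 0.931 among 13487 genes), Slc13a3 ranked 29 (0.843), and Cyp1a2 (-0.62) and Lect2 (-0.67) ran opposite to it. Those last values rest on WT non-tumour 2. Without it, Slc1a2 was at 0.841 (rank 37), Gulo at 0.775, Slc13a3 at 0.651 and Rhbg at 0.594, whereas Rgn (0.218), Lect2 (0.073), Oat (0.065) and Cyp1a2 (0.044) had little relation to Glul. In the 6 tumours the members' r with Glul ran from 0.460 (Rgn) and 0.467 (Rhbg) to 0.890 (Slc1a2). Among 13963 genes these had ranks 2373, 2298 and 94, and the highest r of any gene was 0.995. With 6 samples, an r of this size was therefore not particular to the members.

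Most of the other pericentral genes had the same direction as the 9 in tumours, with lower values for 23 of 24 in WT and 22 of 23 in GKO mice. In WT tumours 12 of 24 were called lower and 0 higher, with a median log2 fold change of -1.73, and 13 of 23 without WT non-tumour 2, where 3.13% of all genes were called lower and 5 of the 9 members were. In GKO tumours 10 of 23 tested were called lower and 0 higher, with a median of -1.46. Examples in WT mice were Cyp2c50 (-5.30, adjusted p = 0.00158), Cyp2c29 (-5.06, adjusted p = 0.00291), Cyp2e1 (-5.05, adjusted p = 0.00149) and Slco1b2, a bile acid and drug importer (-4.33, adjusted p = 0.00518). In GKO mice they were Cyp2c50 (-4.64, adjusted p = 0.0233), Lhpp, a phosphatase (-4.01, adjusted p = 0.0219), Slco1b2 (-3.13, adjusted p = 0.0150) and Notum, a secreted Wnt inhibitor that Wnt signals induce (-2.98, adjusted p = 0.0221). The feedback target Axin2, named after its values were seen, was called lower in both genotypes (-1.87, adjusted p = 0.0185 in WT and -1.53, adjusted p = 0.0135 in GKO mice).

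**Figure D5:**
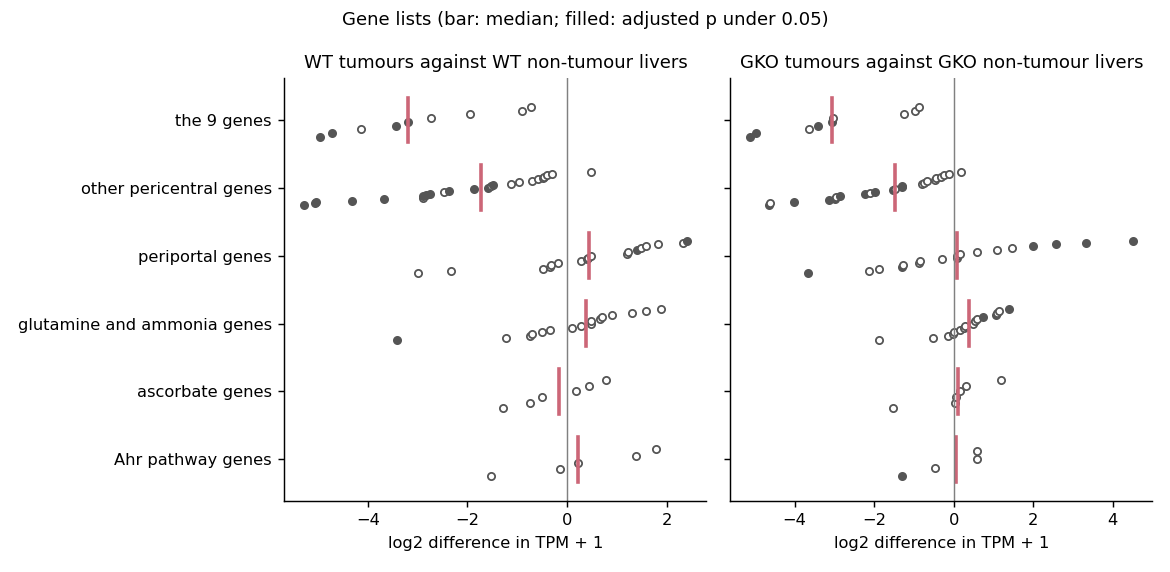
Log2 fold change of TPM + 1 in tumours against non-tumour livers (horizontal axis) of each tested gene in 6 lists, WT on the left and GKO on the right; each point is a gene, filled where the adjusted p was under 0.05, and the red bar is the median of the list. The 9 genes and the other pericentral genes lie left of 0, but for 1 gene of the latter in each genotype, with medians of -3.19 and -1.73 (WT) and -3.06 and -1.46 (GKO), and the other lists lie around 0.

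The periportal genes did not share that direction. As the baseline for this list and those below, 302 of all 14003 genes were called higher in WT tumours and 1092 of 14092 in GKO tumours. In WT tumours 2 of 18 were called higher and 0 lower (median 0.45): Aldh1b1, a mitochondrial aldehyde dehydrogenase (2.42, adjusted p = 0.00317), and Alb (1.40, adjusted p = 0.0358). In GKO tumours 4 were called higher and 2 lower (median 0.08), the largest being Aldh1b1 (4.52, adjusted p = 0.00583), Pigr, the receptor that carries immunoglobulin A into bile (-3.65, adjusted p = 0.0215), Cdh1 (3.34, adjusted p = 0.00406) and Hsd17b13, an enzyme of lipid droplets (2.56, adjusted p = 0.0102). Without WT non-tumour 2, 1 periportal gene was called lower in WT tumours and 2 higher.

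The other genes of glutamine and ammonia metabolism did not go with Glul. Of 16, 1 was called lower in WT tumours, the proline oxidase Prodh (-3.42, adjusted p = 0.0238). In GKO tumours 3 were called higher and 0 lower, among them Aldh18a1 (1.39, adjusted p = 0.0127) and Pycr1 (1.06, adjusted p = 0.0178), which make proline. The medians were 0.38 in both genotypes. In the ascorbate pathway beside Rgn and Gulo, 0 of 6 genes were called by limma in either genotype, with 1 at an unadjusted p under 0.05 in WT and 0 in GKO mice. The smallest p-values were those of the glucuronate reductase Akr1a1 in WT tumours (-0.75, adjusted p = 0.245) and of the vitamin C transporter Slc23a1 in GKO tumours (1.18, adjusted p = 0.196). Of 7 genes of the Ahr pathway, which induces Cyp1a2, 5 were tested in WT and 4 in GKO tumours. The receptor gene Ahr itself was the 1 called, lower in GKO tumours (-1.30, adjusted p = 0.0356). It stood at -1.52 (adjusted p = 0.0502) in WT tumours, where 0 were called. The list went both ways, with 3 higher and 2 lower in WT tumours (median 0.23). In GKO tumours 2 were higher and 2 lower (median 0.06). Of 11 family relatives of the members 3 were tested. In GKO tumours 1 was called higher and 1 lower (median 0.83), the latter Slc13a2, of the same transporter family as Slc13a3 (-0.87, adjusted p = 0.0468). In WT tumours limma called 0 of the 3, with 1 at an unadjusted p under 0.05.

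Markers of other cell types were read beside the fall of the members in tumours. The summed endothelial markers were at 60.4 to 95.3 TPM in tumours and 31.7 to 82.9 TPM in livers, and 2 of 8 tested were called higher in GKO tumours, Pecam1 (1.68, adjusted p = 0.00882) and Cdh5 (1.52, adjusted p = 0.0197). The list went both ways in GKO tumours, with 4 higher and 4 lower (median -0.11). The 2 called lower were the Wnt signal genes Rspo3 (-1.90, adjusted p = 0.0151) and Wnt2 (-1.12, adjusted p = 0.0398). In WT tumours 5 were higher and 3 lower (median 0.32), with 0 of 8 called. Rspo3 was at -1.14 (adjusted p = 0.244) and Wnt2 at -0.45 (adjusted p = 0.425) there. Wnt9b, too low to be tested and named after its values were seen, averaged 0.450 TPM in WT tumours and 0.403 TPM in WT non-tumour livers. In GKO mice Wnt9b averaged 0.296 TPM in tumours and 0.505 TPM in non-tumour livers. Rspo3 was at 0.0733 to 1.46 TPM in the 6 tumours. Summed macrophage markers were at 68.3 to 247 TPM in tumours and 71.4 to 603 TPM in livers, with 2 of 8 called lower in GKO tumours, Marco (-3.25, adjusted p = 0.0424) and Timd4 (-2.06, adjusted p = 0.0435). Without WT non-tumour 2, 4 of 8 macrophage markers were called lower in WT tumours, against 0 with it. Stellate cell and fibroblast markers had 3 of 8 called higher in GKO tumours, among them Col1a1 (4.33, adjusted p = 0.00406), and 1 lower (Dcn, -1.96, adjusted p = 0.0342), and their sum was 37.2 to 160 TPM in tumours and 31.4 to 85.6 TPM in livers. Summed cholangiocyte markers were at 25.0 to 963 TPM in tumours and 30.9 to 93.8 TPM in livers, and lymphocyte markers at 4.98 to 17.5 and 5.52 to 25.1 TPM, with 0 called in either genotype. In GKO tumours Spp1, named after its values were seen, was at 34.0 to 934 TPM, and each other cholangiocyte marker at 12.7 TPM or less. No marker of these lists was at 0 in all samples of a group. The part of these cell types in the lower levels of the 9 genes was not tested.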

How the data were processed

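RNA-seq was done on 18 mouse samples, grouped by the genotype and tissue in the labels. Per the submitters' processing notes, the authors used STAR 2.7.3a on mm10 and featureCounts 2.0.0, and they deposited TPM. The gene annotation behind the counts is not given in the sources used here. With exonic gene lengths from GENCODE M21 (release 21, with 54809 of the 54838 genes), multiplication turned 97.96% to 98.67% of the values of up to 30 reads into whole reads (within 0.02) and gave the depths. These are the basis of the voom alternative. No sample pair had identical values.

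Each comparison had its own limma fit (version 3.58.1, R 4.3.3, eBayes with trend) on log2(TPM + 1), for genes that averaged 0.5 TPM or more over its samples, with Benjamini-Hochberg adjustment over all of them. The procedure was tested on simulated data. Deviations of same-numbered samples had r = 0.101 to 0.197 in GKO and WT tumours, the comparison whose lowest r was highest. In GKO tumours and GKO non-tumour livers r was 0.0410 to 0.124. In WT tumours and WT non-tumour livers it was -0.00828 to 0.249. No label gives such a pairing, and the block is given for GKO against WT tumours.

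The 9 genes and all lists were chosen with earlier results of these data known. The text names the 9 genes, up to 4 called genes of each list with the largest change, or those with the smallest p if none was called, the 5 genes most like Glul, and genes said to be named after their values were seen. Values of 2 called genes of these lists are not reported here; they are in the counts and medians of their lists. Alternatives were a pseudocount of 0.1, no filter, a filter at a mean of 5 TPM, centring on the median, quantile normalization, 1 fit of all 18 samples, no trend, a replicate block, leaving out each sample, averaging WT tumours 1 and 2, and voom. Figures used Python 3.11.15 and matplotlib 3.10.9. Intervals of counting error were not computed.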

Additional observations from a re-analysis of the deposited data

How the results depend on the processing

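Of the 9 members, 4 were called in WT tumours against WT non-tumour livers. The number was 2 with no filter on low values, 7 with all 18 samples in 1 fit and 2 with WT tumours 1 and 2 averaged, and it ranged from 1 to 5 without 1 sample. In GKO mice, where 4 were called, it was 1 with no filter, 6 with all 18 samples in 1 fit and from 1 to 6 without 1 sample. With a replicate block 3 members were called in WT mice, since Glul was lost (adjusted p = 0.0593), and 4 in GKO mice, and the block changed no other member's call. In the other 6 comparisons 0 members were called under every alternative. Rgn kept its 2 calls throughout. The log2 fold changes of all members in tumours against non-tumour livers kept their sign in every alternative.

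In GKO against WT tumours the sign turned without GKO tumour 1 for Oat, Lect2, Gulo, Cyp1a2 and Slc13a3, without GKO tumour 2 for Glul, and without GKO tumour 3 or WT tumour 2 for Slc13a3. Without 1 sample the values ranged from -2.28 to 0.035 for Oat, -1.99 to 0.20 for Lect2, -0.81 to 0.069 for Gulo, -1.77 to 0.65 for Cyp1a2, -0.97 to 0.63 for Slc13a3 and -0.46 to 1.96 for Glul. In GKO against WT non-tumour livers it turned for Cyp1a2 with median centring (0.075), quantile normalization (0.053), voom (0.057) and without WT non-tumour 2 (0.35), and for Slc13a3 without WT non-tumour 2 or GKO non-tumour 1. Without 1 sample the range was -0.47 to 0.35 for Cyp1a2 and -0.55 to 0.81 for Slc13a3. None of these values was called, and the cause was not tested.

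Over all genes, 592 were called in WT tumours against non-tumour livers (163 without WT tumour 2 to 1533 with all 18 samples in 1 fit, and 361 with a replicate block), 1652 in GKO mice (229 without GKO non-tumour 3 to 2627 in 1 fit) and 3 in GKO against WT tumours (0 to 147, the latter without WT tumour 3). Reads were fewest for Rhbg (3), Slc1a2 (4) and Slc13a3 (11), all in GKO tumour 1.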
